A study of Homo sapiens with 6 samples.

Results

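The genes of collagens, laminins and matrix glycoproteins were compared between 3 control and 3 case libraries of HK-2 cells, a human renal proximal tubular epithelial line. Members were the rows of the FPKM table whose Ensembl identifier belongs to a protein-coding gene of a collagen chain or laminin chain, or to 1 of 17 further genes for basement membrane glycoproteins (*HSPG2*, *AGRN*, *NID1*, *NID2*), interstitial glycoproteins (*FN1*, *SPARC*, *THBS1*, *TNC*, *FBN1*, *FBN2*) and enzymes or a chaperone of collagen (*LOX*, *LOXL2*, *P4HA1*, *P4HA2*, *PLOD1*, *PLOD2*, *SERPINH1*). The rule found 70 of the 29483 genes, made up of 41 collagen chains, 12 laminin chains and these 17 genes. All cells, controls included, spent 7 days in medium with 25 mM high D-glucose (HG). The case group then received TEPP-46, an activator of the glycolytic enzyme PKM2, at 10 μM for 1 day with HG still present, and the control group did not receive it. The labels and methods name no group in low glucose and no vehicle for the control group. The study calls the replicates independent and treated apart from each other. Whether they were cultures started separately is not stated, so the P-values measure the spread between these libraries.

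Epithelial cells rest on a basement membrane, a sheet in which laminins form one network and collagen IV another, with nidogens and the proteoglycan perlecan binding to both. A laminin is a trimer of an alpha, a beta and a gamma chain, and each chain has its own gene. The laminin that contains the chains of *LAMA3* and *LAMB3* anchors epithelia to the matrix below, while the chains of *LAMA5*, *LAMB1* or *LAMB2*, and *LAMC1* form the laminins of mature tubular and glomerular basement membranes. Fibrillar collagens, fibronectin and thrombospondin belong to the interstitial matrix that accumulates in renal fibrosis, where fibroblasts are a main source. Collagen chains are hydroxylated inside the cell by the P4HA and PLOD enzymes, folded with the chaperone encoded by *SERPINH1*, and cross-linked outside it by LOX and LOXL2.

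HK-2 is a single line immortalized with papillomavirus genes, and its libraries carried the keratins of an epithelium but little of a differentiated proximal tubule. Over the 6 libraries, mean FPKM (a read count corrected for gene length and library size) was 308 for *KRT8*, 190 for *KRT18*, 346 for *KRT19* and 13.6 for *EPCAM*. By contrast, the 8 listed genes of the differentiated proximal tubule that were in the table reached at most 0.354 (*MME*), with *LRP2*, which encodes megalin, at 0.00114. Markers of other cells were near 0. The 4 fibroblast and pericyte markers in the table reached at most 0.218 (*RGS5*), with *PDGFRB* at 0.0313 and *THY1* at 0.00833, and the 5 endothelial markers reached at most 0.0294. Of the leukocyte list, *CD14* was at 0.535, and *CD68* and *LYZ* at 0.00904 and 0.00544. The library sizes behind the FPKM, recovered from the values, were 18634891, 17924033 and 17378710 reads for the control group. Those of the case group were 16711934, 16047243 and 15363254 reads, each smaller than any control library.

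The matrix genes with high levels in these cells included laminins, agrin, collagen VI, tenascin and several enzymes, while fibrillar collagens were low (the plot of mean levels by role). *LAMB3* had by far the highest level of the 70 genes, with a mean FPKM of 187 over the 6 libraries. *AGRN*, which encodes the proteoglycan agrin, followed at 47.1, then *LOXL2*, a collagen cross-linking enzyme, at 40.3, *SERPINH1* at 30.5 and *PLOD2*, a lysyl hydroxylase, at 27.3. Among collagens, the chains of collagen VI, a microfibrillar collagen, stood highest, *COL6A2* at 22.9 and *COL6A1* at 15.9, and the third classical chain, *COL6A3*, was at 0.000962. The main fibrillar chains were low, with *COL1A1* at 0.245, *COL3A1* at 0.0483 and *COL1A2* at 0.00166. In all, 32 of the 70 genes had a mean FPKM of at least 0.5 and were tested, and 38 did not, 31 of them collagens. The tested genes with the lowest levels were *COL4A4* at 0.705, *COL5A2* at 0.773 and *FN1* at 0.9, and the genes just below the limit were *COL8A2* at 0.421 and *NID2* at 0.396.

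**Figure D1:**
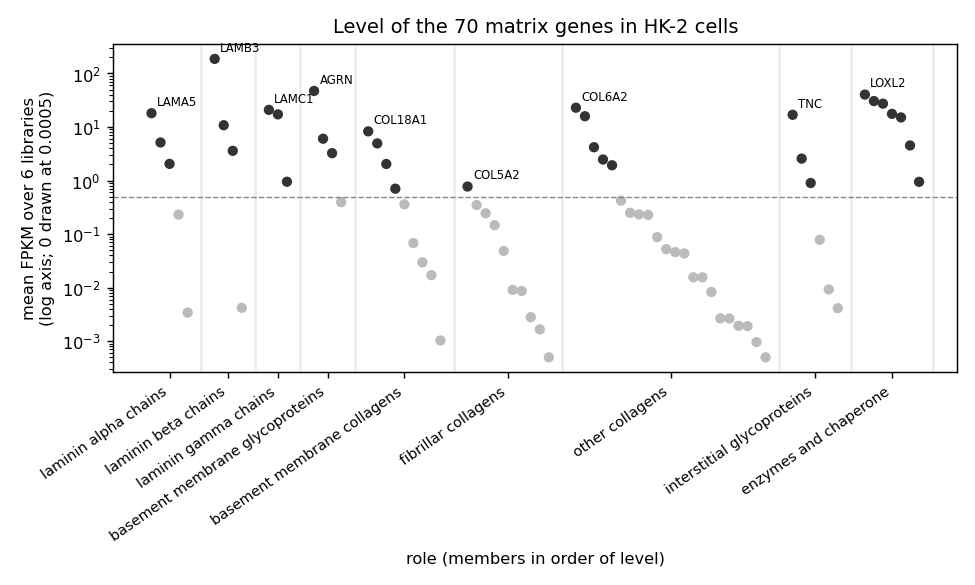
Mean FPKM over the 6 libraries (log axis) of each of the 70 matrix genes, grouped by role and ordered by level, with the most abundant gene of each role named; dark points lie above the dashed line at 0.5 and were tested, grey points were not. *LAMB3* stands at 187, and all fibrillar collagens except *COL5A2* lie below the line.

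TEPP-46 treatment went with lower levels of 8 matrix genes and higher levels of 2. The downregulated genes were *HSPG2*, *NID1*, *LAMA3*, *LAMA5*, *LAMB2*, *THBS1*, *FN1* and *COL12A1*, and the upregulated genes were *LAMB3* and *P4HA1* (limma on log2 of scaled FPKM plus 0.1, Benjamini-Hochberg adjusted p of at most 0.05 over 13599 tested genes). The 8 downregulated genes were 25.0% of the 32 tested members, beside 5.84% of all tested genes, and the 2 upregulated genes were 6.25%, beside 7.34% of all tested genes. Over the tested members, the log2 fold change (case minus control) had a median of -0.26, beside 0.00 for all tested genes, and 21 of the 32 had a negative value. In bulk libraries, a lower level in every cell and fewer cells that express the gene cannot be told apart.

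Before any test, the 3 case values lay below the 3 control values after scaling in 17 of the 32 tested members, and above them in 5. Over all tested genes, 20.4% lay below in this way and 19.5% above. The decrease was not the same in every case library. Against the control mean, the median log2 difference of the 32 members was -0.29 in case replicate 1, -0.13 in case replicate 2 and -0.41 in case replicate 3, while the median of all tested genes was 0.00 in each. By this median case replicate 2 lay closest to the control group, although it had the most members below the control mean, 24 of 32, beside 20 and 22 in case replicates 1 and 3.

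**Figure D2:**
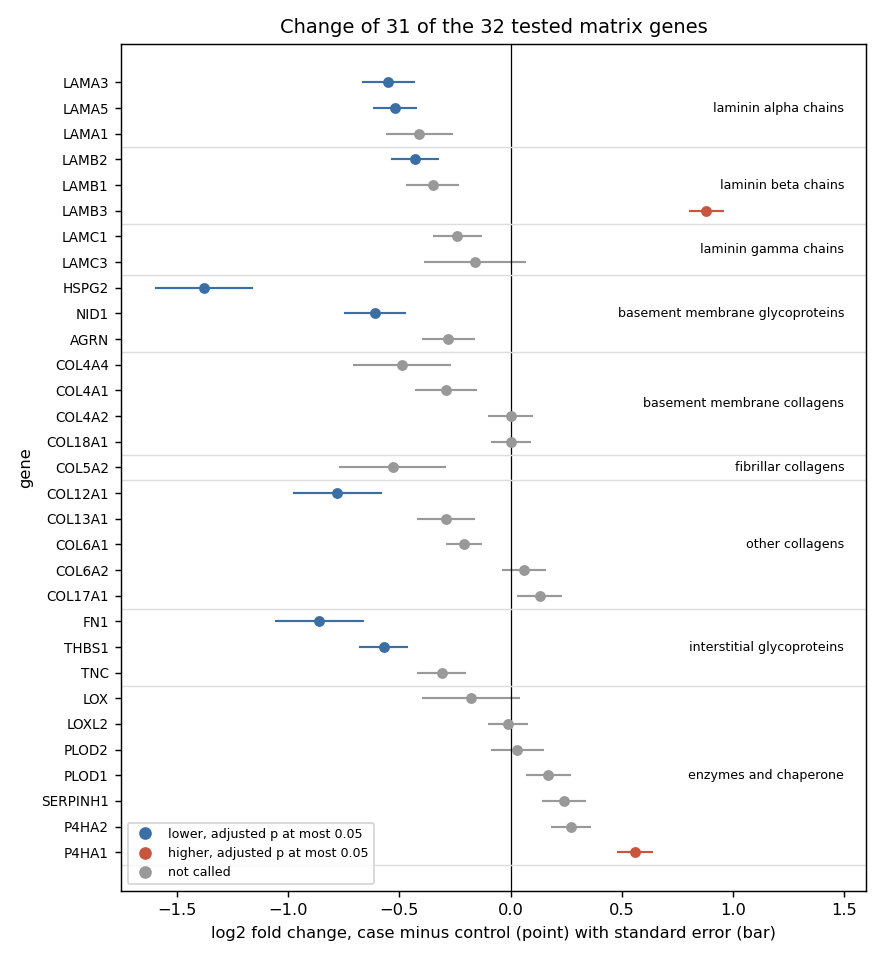
Log2 fold change, case minus control (points) with its standard error from limma (bars), of 31 of the 32 tested matrix genes by role; blue marks the 8 downregulated, red the 2 upregulated and grey the 21 genes shown that were not called. *HSPG2* lies farthest to the left at -1.38 and *LAMB3* farthest to the right at 0.88.

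The count of downregulated members changed with the libraries left out and with the scaling. Without control replicate 1, 2 or 3, no member was downregulated by limma, beside 0.213%, 0.103% and 0.140% of all tested genes. At an unadjusted p under 0.05, 9, 8 and 11 of the 32 members were then lower, beside 11.0%, 10.5% and 11.7% of all tested genes. Leaving out case replicate 3 left *HSPG2* alone (0.522% of all tested genes), and leaving out case replicate 2 gave 11 downregulated members (12.4%). The median log2 fold change of the members was -0.24, -0.25 and -0.26 without control replicate 1, 2 or 3, and that of *HSPG2* was -1.37, -1.35 and -1.42. Without case replicate 3 these were -0.18 and -1.11, and without case replicate 2 -0.34 and -1.60. The members' median was -0.46 with TPM and -0.34 without scaling. *LAMB3* was upregulated with any of the 6 libraries left out, and *P4HA1* was not when any control replicate was left out, which gave adjusted p of up to 0.0702. By limma voom on whole reads recovered from the FPKM values, 12 members were downregulated, beside 11.0% of all tested genes, and the same 2 genes were upregulated, beside 9.36%. With all libraries brought to one FPKM total (TPM), the median of all tested genes moved by -0.19, with 13 members downregulated and 2 upregulated. The split of all DE genes then changed from 998 higher and 794 lower to 383 higher and 2387 lower, and without scaling it was 662 higher and 1124 lower.

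Promoter sequences are shown for 4 genes on which these results turned, both called chains of the *LAMB3* and *LAMA3* laminin, the gene with the lowest fold change (*HSPG2*) and the upregulated hydroxylase gene (*P4HA1*). RefSeq promoters (GRCh38.p14, 250 bases before to 50 bases after a start site) were found for 53 of the 70 genes, as 69 windows. Capitals mark matches to TGANTCA, the AP-1 site, to ACGTG, the core of the hypoxia response element, and to GGGCGG, the GC box, on either strand, with overlapping matches counted. The sequences are of chr1:209651325-209651624 (minus strand, the third *LAMB3* window), chr18:23872770-23873069 (plus strand), chr1:21937261-21937560 (minus strand) and chr10:73096817-73097116 (minus strand), each read 5′ to 3′ on the strand of the gene.
LAMB3: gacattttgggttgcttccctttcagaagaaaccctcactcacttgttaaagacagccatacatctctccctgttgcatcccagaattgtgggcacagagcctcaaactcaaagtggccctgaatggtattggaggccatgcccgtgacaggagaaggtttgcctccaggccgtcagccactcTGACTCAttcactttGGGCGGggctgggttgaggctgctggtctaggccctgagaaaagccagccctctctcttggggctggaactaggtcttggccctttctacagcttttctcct
LAMA3: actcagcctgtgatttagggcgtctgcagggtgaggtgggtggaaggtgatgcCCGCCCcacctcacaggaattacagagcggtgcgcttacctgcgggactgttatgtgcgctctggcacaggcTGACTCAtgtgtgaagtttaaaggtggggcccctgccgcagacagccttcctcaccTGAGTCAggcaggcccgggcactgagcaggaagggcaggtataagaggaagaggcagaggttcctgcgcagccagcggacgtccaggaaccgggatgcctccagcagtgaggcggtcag
HSPG2: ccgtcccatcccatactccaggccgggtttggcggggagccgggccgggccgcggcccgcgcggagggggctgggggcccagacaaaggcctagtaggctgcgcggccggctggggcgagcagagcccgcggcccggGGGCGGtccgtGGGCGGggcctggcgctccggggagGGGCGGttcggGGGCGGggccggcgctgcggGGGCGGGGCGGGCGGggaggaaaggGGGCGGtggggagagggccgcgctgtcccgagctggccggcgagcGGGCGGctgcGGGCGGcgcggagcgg
P4HA1: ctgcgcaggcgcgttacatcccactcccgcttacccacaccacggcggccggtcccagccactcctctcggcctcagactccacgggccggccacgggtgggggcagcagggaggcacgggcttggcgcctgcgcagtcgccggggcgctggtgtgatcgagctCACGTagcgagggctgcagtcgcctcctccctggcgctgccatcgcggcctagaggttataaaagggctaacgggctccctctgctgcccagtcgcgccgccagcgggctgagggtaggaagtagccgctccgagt

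The *LAMA3* window held 2 matches to TGANTCA and the *LAMB3* window 1, and these were the only 2 of the 25 tested members with a promoter entry that held this motif, which was in 4.35% of the member windows and in 7.71% of all 35116 promoters. The other *LAMB3* windows, chr1:209652376-209652675 and chr1:209652280-209652579, held none. The only *LAMA3* window lies within the gene, not at its annotated start (chr18:23689453), while the FPKM are of the whole gene. The levels of *LAMB3* and *LAMA3* moved in opposite directions. Perlecan's promoter held 10 matches to GGGCGG, a motif found in 20 of the 25 tested members. Counted by window, it was in 60.9% of the 69 member windows and in 45.0% of all promoters. The *P4HA1* window held 1 match to ACGTG, as did windows of *COL12A1*, *LOX*, *PLOD2* and *SERPINH1* among the tested members, and this motif was in 21.7% of the member windows and in 21.4% of all promoters. The matches describe letters in these windows, and no binding was measured.

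Laminin genes changed in opposite directions, and *LAMB3* was the exception on the higher side. Of the 12 laminin chains, 9 were tested. *LAMA5*, *LAMA3* and *LAMB2* were downregulated (33.3%), *LAMB3* was upregulated (11.1%) and 5 were not called. Of all tested genes 5.84% were downregulated and 7.34% upregulated. The median log2 fold change was -0.35 over the 9 genes, beside 0.00 for all tested genes.

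*LAMB3* (ENSG00000196878, chr1:209614870-209652425 on GRCh38) encodes the beta chain of the anchoring laminin. Its FPKM was 137, 137 and 135 in the controls and 252, 238 and 225 under TEPP-46. Every case value was far above every control value. Its log2 fold change was 0.88 ± 0.08 (SE, n = 3 against 3) with an adjusted p of 0.00223, the rank of its P-value being 27 among the 13599 tested genes. The number of reads behind these values ranged from 11111 to 12090 for controls and from 16450 to 19970 in the case group.

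The alpha chain that pairs with *LAMB3* did not follow it. *LAMA3* (ENSG00000053747, chr18:23689453-23956222) was at 6.38, 6.21 and 6.11 FPKM in the controls and at 3.25, 4.77 and 4.10 in the case replicates. The groups did not overlap, and case replicate 1 was the lowest. This gave a log2 fold change of -0.55 ± 0.12, with an adjusted p of 0.0277, which became -0.34 when the libraries were corrected for gene length.

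The proportion of the transcripts of *LAMB3* and *LAMA3* moved apart with these changes (the plot of both chains and their ratio). The FPKM ratio of *LAMB3* to *LAMA3* was 21.4, 22.1 and 22 in the controls and 77.4, 49.9 and 55.0 in the case replicates. The groups did not overlap, and case replicate 1 was the highest. The mean ratio was 21.8 ± 0.366 (SD, n = 3) and 60.8 ± 14.6, and it was not tested, since both genes had been called in opposite directions. The transcripts of *LAMB3* made up 60.6% ± 0.476 of the laminin FPKM for controls and 77.5% ± 2.11 in the case group. The FPKM sum of all laminin chains was 225 ± 3.73 and 308 ± 16.2, whereas without *LAMB3* it was 88.6 ± 2.5 and 69.4 ± 8.16.

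**Figure D3:**
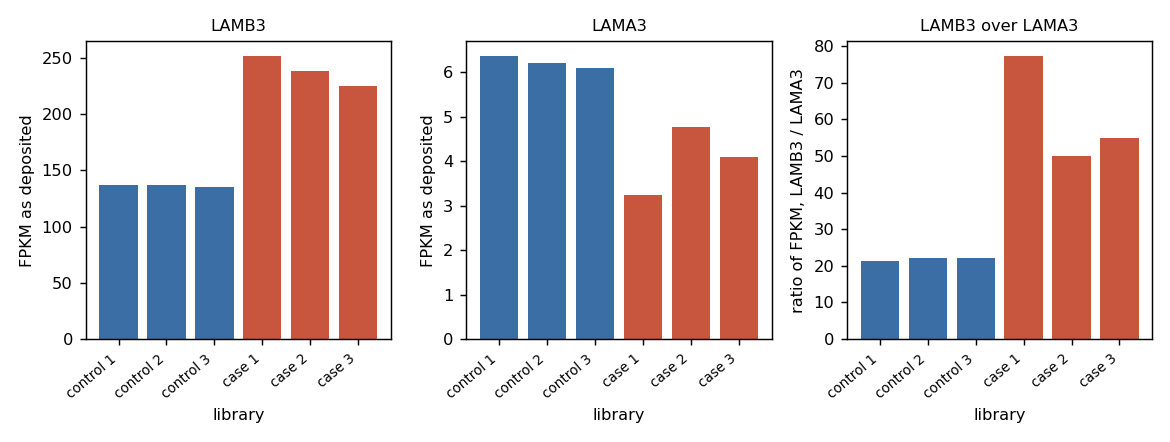
FPKM of *LAMB3* (left) and *LAMA3* (middle) and the FPKM ratio of *LAMB3* to *LAMA3* (right) in each of the 6 libraries, control in blue and case in red; every axis starts at 0. All case libraries have a higher ratio than all control libraries, with case replicate 1 highest at 77.4.

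The chains of the mature basement membrane laminins were lower or not called. *LAMA5* (ENSG00000130702, chr20:62307955-62367312), the main alpha chain of tubular basement membranes, was at 22.9, 21.8 and 20.8 FPKM in the controls and at 14.3, 16.3 and 12.7 in the case replicates. The lowest control value exceeded the highest case value, and the log2 fold change was -0.52 ± 0.10 (adjusted p = 0.0204). *LAMB2* (ENSG00000172037, chr3:49121114-49133118), a beta chain best known from the glomerular basement membrane, was at 13.8, 12.7 and 11.7 and at 9.24, 9.64 and 7.99. Again the groups did not overlap, with a log2 fold change of -0.43 ± 0.11 (adjusted p = 0.0400). *LAMC1*, the gamma chain shared by most laminins, was at 22.5, 23.3 and 23.4 in the controls and at 16.7, 22.6 and 16.7 in the case replicates. Case replicate 2 of *LAMC1* lay within the control range, and the gene was not called (log2 fold change -0.24 ± 0.11, adjusted p = 0.168), although it was downregulated without case replicate 2 (adjusted p = 0.015). The other tested chains, *LAMA1*, *LAMB1* and *LAMC3*, had log2 fold changes of -0.41, -0.35 and -0.16 and were not called. However, *LAMA1* and *LAMB1* were downregulated with voom and with TPM, and *LAMA1* also without case replicate 2. An antisense gene and *ADRM1* overlap *LAMA5* on the opposite strand, and the strandedness of the libraries is not given in the sources used here, so reads of the shared stretches cannot be assigned.

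Among basement membrane glycoproteins, *HSPG2* and *NID1* were downregulated and *AGRN* was not called. *HSPG2* (ENSG00000142798, chr1:21822244-21937310) encodes perlecan, the large heparan sulfate proteoglycan that links the laminin and collagen networks. Its FPKM was 4.79, 4.95 and 4.53 in the controls and 1.72, 2.39 and 1.14 in the case replicates. The highest case value was below the lowest control value, and case replicate 3 was the lowest of all. The log2 fold change was -1.38 ± 0.22, a 2.6-fold lower level with an adjusted p of 0.0143, and it was the lowest log2 fold change of the 32 tested members.

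*NID1* (ENSG00000116962, chr1:235975830-236065109) encodes nidogen, which bridges laminin and collagen IV. Its level was 7.21, 8.27 and 6.86 FPKM in the controls and 4.01, 5.74 and 4.16 in the case replicates, without overlap. The log2 fold change of *NID1* was -0.61 ± 0.14 (adjusted p = 0.0294). *AGRN* was at 54.2, 51.9 and 52.1 in the controls and at 45.3, 45.3 and 34.1 in the case replicates. Although the groups of *AGRN* did not overlap, case replicate 3 stood apart from the other case libraries, and the log2 fold change of -0.28 ± 0.12 did not pass (adjusted p = 0.153). With TPM *AGRN* passed in limma (log2 fold change -0.48, adjusted p = 0.0308). *NID2*, the second nidogen gene, lay below the limit for testing with 72, 48 and 65 reads in the controls and 24, 34 and 21 in the case replicates. Its groups did not overlap either.

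No basement membrane collagen was called. Of the 9 chains of collagens IV, VII, XV and XVIII, 4 were tested, with a median log2 fold change of -0.14. *COL18A1*, whose product carries the endostatin fragment, had the highest level, with 8.31, 8.51 and 8.71 FPKM in the controls and 8.59, 8.25 and 7.42 in the case replicates. The groups overlapped, and the log2 fold change was 0.00 ± 0.09 (adjusted p = 0.994), with values from -0.20 to 0.13 under other settings. The 2 chains of the common collagen IV trimer, which are transcribed from a shared promoter region, differed in their values. *COL4A2* was at 5.06 ± 0.136 (SD, n = 3) for controls and 4.82 ± 0.385 in the case group, with a log2 fold change of 0.00, and *COL4A1* was at 2.3 ± 0.199 and 1.77 ± 0.251, with a log2 fold change of -0.29 (adjusted p = 0.181). Their FPKM ratio was 2.21 ± 0.127 for controls and 2.75 ± 0.34 in the case group. Of 4 ratios between partner chains or subunits that were compared by exact two-sided permutation tests, this one, *COL6A2* over *COL6A1* and *P4HA1* over *P4HA2* gave p = 0.1, the smallest that 3 against 3 libraries allow (adjusted p = 0.133 over the 4). The ratio of *LAMB1* to *LAMB2* was 0.326 ± 0.0383 and 0.346 ± 0.072, with p = 1.0 in the same exact test. *COL4A4*, a chain of the glomerular collagen IV, had a log2 fold change of -0.49 (adjusted p = 0.157), although it was downregulated by limma voom and without the intensity trend.

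Of the 6 interstitial glycoproteins 3 were tested, and 2 of these (66.7%) were downregulated, beside 5.84% of all tested genes. *THBS1* (ENSG00000137801, chr15:39581079-39599466) encodes thrombospondin, which can release active TGF-β from its latent form. It was at 3.21, 3.12 and 3.12 FPKM in the controls and at 1.78, 2.29 and 1.90 in the case replicates. The groups did not overlap, and the control values lay close together. Its log2 fold change was -0.57 ± 0.11 (adjusted p = 0.0224). *FN1* (ENSG00000115414, chr2:215360440-215436073) encodes fibronectin, a marker of renal fibrosis, and was expressed at 1.08, 1.34 and 1.21 in the controls and at 0.529, 0.691 and 0.549 in the case replicates. Each case value of *FN1* was lower than each control value, with a log2 fold change of -0.86 ± 0.20 (adjusted p = 0.0328). With the replicate number fitted as a block, *FN1* was not called by limma, at the same log2 fold change (adjusted p = 0.0535).

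*TNC*, the gene of tenascin, was the most abundant of this group. It was at 19.5, 20.0 and 18.1 FPKM in the controls and at 14.1, 17.1 and 12.9 in the case replicates. The groups did not overlap, and the log2 fold change of -0.31 ± 0.11 did not pass the test (adjusted p = 0.085), whereas *TNC* passed with voom (adjusted p = 0.0448), with TPM (adjusted p = 0.0282) and without case replicate 2 (adjusted p = 0.0229). The remaining genes of the group, *SPARC*, *FBN1* and *FBN2*, were not tested, with mean FPKM of 0.00413, 0.0782 and 0.00924. All *SPARC* reads, 2 in number, came from case replicate 1. *FSIP1* and an antisense gene overlap *THBS1* on the opposite strand, and *LDLRAD2* overlaps *HSPG2* in the same way.

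**Figure D4:**
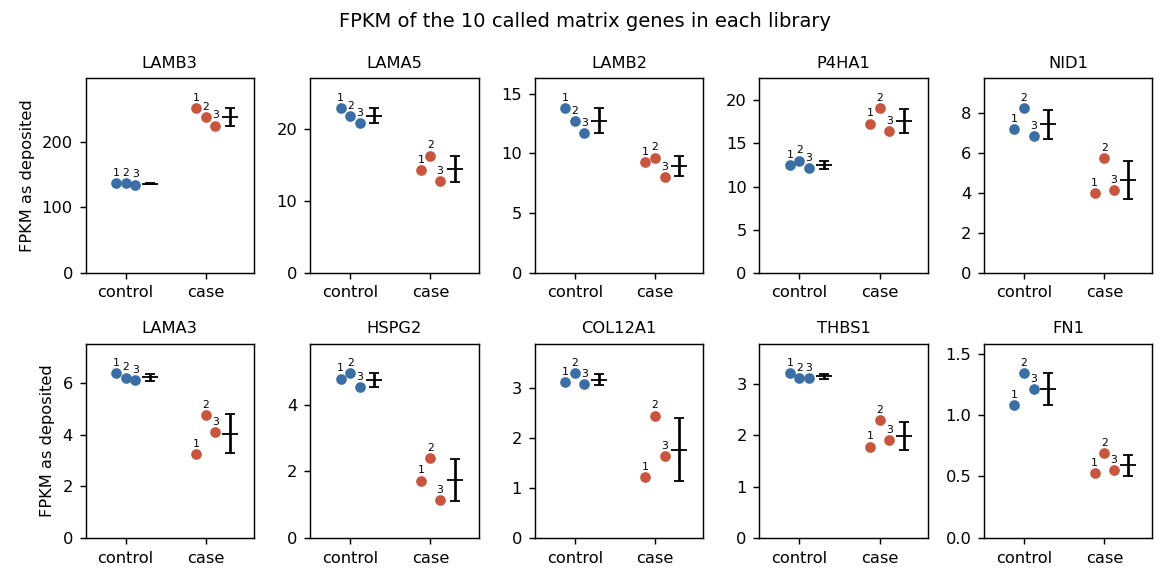
FPKM as deposited of the 10 called matrix genes in each library, with the replicate number above each point and the mean and SD (n = 3) beside it; each vertical axis starts at 0. In no panel do the groups overlap, and case replicate 2 is the case value nearest to the control group in all 8 downregulated genes.

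Collagens outside the basement membrane were mostly too low to test or not called. *COL12A1* (ENSG00000111799, chr6:75084326-75206267), a collagen that associates with fibrils, was the only collagen chain called by limma with the settings used throughout. It was at 3.12, 3.30 and 3.09 FPKM in the controls and at 1.22, 2.45 and 1.64 in the case replicates. The groups did not overlap, but the case libraries spread widely. The log2 fold change was -0.78 ± 0.20 with an adjusted p of 0.0435, and the call was kept in only 1 of the 6 comparisons that left out a library, with adjusted p of up to 0.146. *COL6A2* was at 25.1, 21.9 and 22 in the controls and at 24.5, 21.6 and 22.2 in the case replicates. Its groups overlapped, and the log2 fold change was 0.06 ± 0.10 (adjusted p = 0.708). *COL6A1*, its partner chain, was at 17.5 ± 0.237 (SD, n = 3) and 14.4 ± 0.716, with a log2 fold change of -0.21 (adjusted p = 0.124). *COL6A1* was downregulated without scaling, with TPM and without case replicate 1. The FPKM ratio of *COL6A2* to *COL6A1* was 1.31 ± 0.0911 and 1.59 ± 0.0842.

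The other collagens outside the basement membrane and above the limit were *COL17A1*, a transmembrane collagen of hemidesmosomes, and *COL13A1*, a transmembrane collagen of cell adhesions. Their log2 fold changes were 0.13 and -0.29, and neither was called. *COL5A2* was the single fibrillar chain tested. Its FPKM was 0.975, 0.92 and 0.933 in the controls and 0.426, 0.784 and 0.6 in the case replicates. No case value of *COL5A2* reached the control values, but its log2 fold change of -0.53 ± 0.24 was not called (adjusted p = 0.169). The FPKM sum over all 41 collagen chains was 70.9 ± 2.27 for controls and 62.8 ± 2.74 in the case group.

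Among the 38 genes below the limit, *COL2A1* and *COL22A1* were listed at 0 in every library, 14 had under 10 reads in all, 11 had from 10 to 99 reads, and 11 had 100 reads or more. In 8 of the 38 every case value lay below every control value, and in 0 every case value lay above. Of all 14323 genes below the limit and above 0 in any library, whose levels were not matched to those of the members, 5.99% lay below and 3.41% above. These 8 were *COL1A1*, *COL4A3*, *COL8A2*, *COL11A2*, *COL14A1*, *COL26A1*, *COL28A1* and *NID2*. *COL1A1*, the major chain of interstitial collagen, had 64, 46 and 53 reads in the controls and 27, 24 and 35 in the case replicates. With no filter on low values, 0 of the 38 were called by limma, and *COL1A1* had an adjusted p of 0.443 and *NID2* of 0.215, with unadjusted p of 0.139 and 0.0305. *NID2* and *COL26A1*, the latter with an unadjusted p of 0.036 by limma, were the only ones of the 38 under 0.05. In this fit 7 of the 8 downregulated members were not called either, and the part of depth in the missing calls of low genes was not tested.

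Of the enzymes and the chaperone, all 7 were tested, 1 was upregulated (14.3%) and 0 were downregulated, beside 7.34% and 5.84% of all tested genes. Their log2 fold changes had a median of 0.17, with 5 positive and 2 negative values, and no test compared them with the other members. Over all tested genes the median was 0.00, with 6769 positive and 6830 negative values. *P4HA1* (ENSG00000122884, chr10:73007217-73096974), a catalytic subunit of the prolyl hydroxylase that stabilizes the collagen helix, was at 12.5, 13 and 12.1 FPKM in the controls and at 17.3, 19.1 and 16.4 in the case replicates. Every case value was higher than every control value. On the log2 scale the fold change was 0.56 ± 0.08, with an adjusted p of 0.0124. *P4HA2*, the alternative catalytic subunit, was at 4.21 ± 0.0568 (SD, n = 3) and 4.84 ± 0.138. Its log2 fold change of 0.27 did not pass (adjusted p = 0.0721). The ratio of *P4HA1* to *P4HA2* was 2.98 ± 0.14 for controls and 3.63 ± 0.195 in the case group, without overlap.

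*LOXL2* was the most abundant of the enzyme genes. It was at 42.4, 39.4 and 42.6 FPKM in the controls and at 41.7, 39.6 and 36.1 in the case replicates. The groups overlapped, with a log2 fold change of -0.01 ± 0.09 (adjusted p = 0.953). *SERPINH1*, *PLOD1* and *PLOD2* had log2 fold changes of 0.24, 0.17 and 0.03, and *LOX* of -0.18, and none of these was called. With the correction for GC content, *SERPINH1* was upregulated.

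Genes of the wider matrix were examined in 5 lists, of which 132 genes were in the table and 75 were tested. In these lists 1 gene was downregulated and 4 were upregulated, 1.33% and 5.33% of those tested, beside 5.84% and 7.34% of all tested genes. None of the 20 tested genes of the list of other collagen-modifying enzymes was called by limma, with 2 lower and 2 higher at an unadjusted p under 0.05, and none of the 12 tested matrix receptors, with 5 lower and 1 higher. At this unadjusted threshold 16.2% of all tested genes were lower and 16.8% higher. By limma voom, 9 genes of the 5 lists were downregulated and 5 upregulated, 12% and 6.67% of those tested, beside 11.0% and 9.36% of all tested genes. Of 21 tested further matrix glycoproteins, *FRAS1*, a basement membrane protein of the developing kidney, was downregulated, from 1.55, 1.46 and 1.5 FPKM in the controls to 0.543, 0.838 and 0.626 in the case replicates (log2 fold change -1.01 ± 0.19, adjusted p = 0.02). This call was lost when any 1 control replicate was left out, without case replicate 3, with no filter and with the replicate block and length correction. Of these 21 glycoproteins, 7 were lower and 0 higher at an unadjusted p under 0.05 by limma. The shares over all tested genes were 16.2% and 16.8%. The median log2 fold change of the 21 was -0.20, beside 0.00 for all tested genes.

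Of 7 tested proteoglycans, *SDC4*, a cell surface receptor for matrix, was upregulated, from 86.1, 91.6 and 83.3 FPKM in the controls to 125, 123 and 117 in the case replicates (log2 fold change 0.56 ± 0.08, adjusted p = 0.0102). In the list of TGF-β signalling, which induces many matrix genes, 3 of 15 tested genes (20.0%) were upregulated and 0 downregulated, beside 7.34% and 5.84% of all tested genes. At an unadjusted p under 0.05 by limma, 4 of the 15 were higher and 3 lower (*TGFB2*, *TGFBR1* and *TGFBR2*). Of all tested genes 16.8% were higher and 16.2% lower at this threshold. *CCN2*, a matricellular target of the pathway, was at 16.0, 15.9 and 13.4 in the controls and at 23.0, 25.1 and 23.8 in the case replicates (log2 fold change 0.75 ± 0.09, adjusted p = 0.0078). *SMAD7*, a feedback inhibitor, was at 1.41, 1.24 and 1.79 in the controls and at 2.9, 2.55 and 2.68 in the case replicates (log2 fold change 0.92 ± 0.16, adjusted p = 0.0165). The groups were well separated. *TGIF1*, a repressor of the pathway, was at 12.1, 12 and 13.2 and at 16.9, 16.7 and 17.3 (log2 fold change 0.53 ± 0.08, adjusted p = 0.0130). In all 4 upregulated genes of these lists the groups did not overlap. After scaling, 19.5% of all tested genes had every case value above every control value. Without control replicate 1, 2 or 3, the upregulated genes of the wider lists numbered 1, 1 and 2 by limma. The shares of all tested genes were then 0.558%, 0.404% and 0.5%. Without case replicate 1, 2 or 3 they numbered 6, 4 and 2, beside 8.92%, 13.4% and 0.89% of all tested genes.

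Gene length moved with these results. The tested members had a median length of 7893 bp, beside 4371 bp for all tested genes, and a GC content of 52.1%, beside 48.1%. Over all tested genes of at least 8000 bp, 14.4% were downregulated and 1.63% upregulated, with a median log2 fold change of -0.22, whereas of those under 2000 bp 2.05% were downregulated and 10.0% upregulated, with a median of 0.16. Of the 32 tested members, 16 were at least 8000 bp long. These included 6 of the 8 downregulated genes and neither upregulated gene, and the 16 had a median of -0.38.

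After each library was corrected for gene length, 4 members were downregulated, *HSPG2*, *LAMA3*, *NID1* and *THBS1*, beside 4.60% of all tested genes. *LAMB3*, *P4HA1* and *P4HA2* were then upregulated, beside 6.68%, and the median of the members was -0.10. *HSPG2* kept a log2 fold change of -1.14 (adjusted p = 0.0192) and *LAMB3* of 0.88 (adjusted p = 0.00199). *LAMA3* shrank to -0.34 (adjusted p = 0.0453), *NID1* was at -0.57 and *THBS1* at -0.42, and with the replicate block added to the length correction *LAMA3* and *THBS1* were not called (adjusted p = 0.084 and 0.0696). After the length correction *LAMA5*, *LAMB2*, *FN1* and *COL12A1* were no longer called, with log2 fold changes of -0.31, -0.34, -0.63 and -0.54. Beyond this correction, the part of gene length in the matrix results was not tested.

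**Figure D5:**
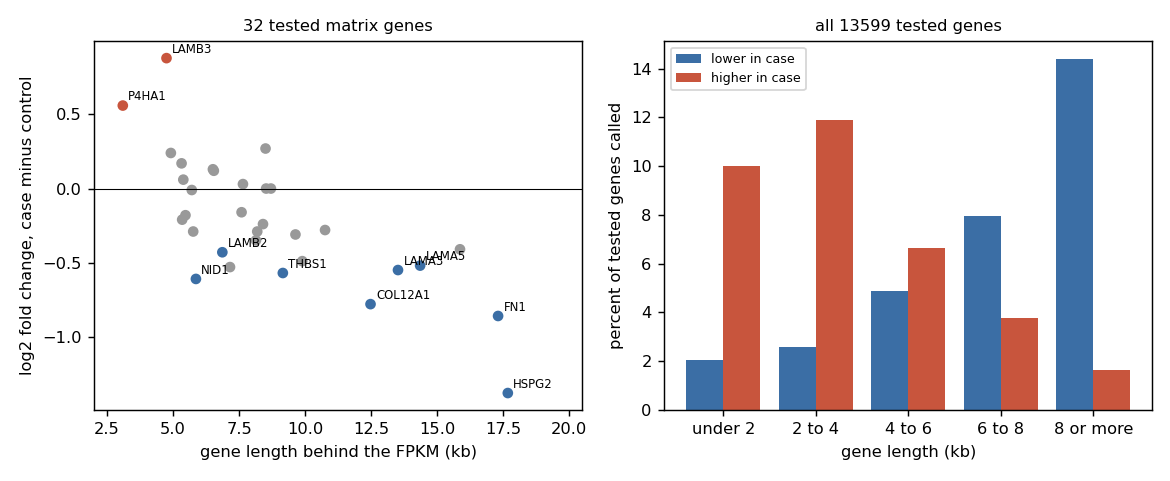
Left, log2 fold change against gene length for the 32 tested matrix genes, with blue for downregulated, red for upregulated and grey for genes not called; right, the percent of all 13599 tested genes called lower (blue) or higher (red) in 5 classes of gene length. The share called lower runs from 2.05% in the shortest class to 14.4% in the longest, the class that holds 16 of the 32 matrix genes.

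Of the 7 tested markers of the epithelial line, 1 was downregulated and 1 upregulated (14.3% each), beside 5.84% and 7.34% of all tested genes. *CDH1*, which encodes E-cadherin, fell from 3.42 ± 0.0811 (SD, n = 3) FPKM in the control group to 2.05 ± 0.248 in the case group (log2 fold change -0.64, adjusted p = 0.0156), and *VIM*, which encodes vimentin, rose from 94.8 ± 3.23 to 144 ± 22.2 (log2 fold change 0.66, adjusted p = 0.0204). The other 5 tested genes of this list, among them *KRT18*, *KRT19* and *EPCAM*, were not called. *CD14* was at 0.806 ± 0.161 and 0.264 ± 0.029 and reached the limit for testing only through the control group, so no call is given for it. The part of these genes in the matrix results was not tested.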

How the data were processed

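RNA of 3 control and 3 case replicates, grouped by the treatment in the labels, was sequenced as paired-end reads. The authors aligned reads to GRCh38.p13 with HISAT2 2.1.0, counted them on genes with HTSeq 0.6.0 and deposited FPKM of 29483 genes. Strandedness and the selection of RNA are not given in the sources used here. Symbols, positions and the exonic lengths of the length correction came from GENCODE 44, which matched 29063 genes. Because FPKM rise in steps of 1 read, library sizes and whole reads (tolerance 0.001) were recovered from the values. The gene lengths given in the text are those behind the FPKM, recovered in the same way. Since reads carry no molecular identifiers, some may be copies of one molecule.

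FPKM were divided by median-of-ratios factors (0.944 to 1.04), 0.1 was added, and log2 values of genes with a mean FPKM of 0.5 or more entered limma 3.58.1 (R 4.3.3) with an intensity trend and no covariates, in place of the count test of the study, since the deposited unit was FPKM. P-values were adjusted over all tested genes by the Benjamini-Hochberg method. Fold changes are on the scale of log2(FPKM + 0.1), which understates changes of low genes. Of 5 ratios, 4 were compared by exact two-sided permutation tests over the libraries, in which p cannot fall below 0.1. The procedure was tested on simulated data.

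Members and lists were chosen with earlier results of these data known. Genes described with the value in every library were all called members, the most abundant tested member of each role and the called genes of the wider lists; the low genes given with reads were chosen after their values were seen. Of the tested members, 1 is counted but not reported here by name or value. Alternatives were pseudocounts of 1 and 0.01, no filter, a mean FPKM of at least 1, no scaling, quantile normalization, TPM, no trend, robust estimation, voom, a replicate block, corrections for length and GC content, and leaving out each library. Scaling factors over all genes above 0 in every library were added after seeing the data.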

Additional observations from a re-analysis of the deposited data

How the results depend on the processing

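*LAMB3* kept its call in all 15 other settings and without any single library, and *HSPG2* and *P4HA1* kept theirs in the 15 settings but not without a control replicate, where their log2 fold changes were -1.37, -1.35 and -1.42 and 0.56, 0.59 and 0.53. The 8 downregulated members became 1 with no filter on low values (0.684% of all genes tested there were lower), 13 with TPM (17.6%), 5 with no intensity trend (3.06%), 4 with the length correction (4.60%) and 2 with the replicate block and the length correction (2.93%), and ranged from 0 to 11 when 1 library was left out. The 5 with no intensity trend were *FN1*, *HSPG2*, *LAMA5*, *THBS1* and, newly, *COL4A4*. There *LAMA3*, *NID1*, *LAMB2* and *COL12A1* were not called, with limma adjusted p from 0.0554 to 0.0729. The 2 upregulated members ranged from 1 to 2 when 1 library was left out. The 1792 DE genes became 520 with no filter, 2770 with TPM, 852 with no intensity trend, 2765 with voom, 3243 with the GC correction and 990 with the replicate block and length correction, and ranged from 69 to 3495 when 1 library was left out. The 5 called genes of the wider lists became 3 with no filter, 8 each with a mean FPKM of at least 1, without scaling and with quantile normalization, 22 with TPM, 14 with voom, 9 with the length correction and 18 with the GC correction, and ranged from 1 to 17 when 1 library was left out. The cause of these changes was not tested.

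Replicates shared only a number. The correlations of same-numbered deviations were 0.06, 0.10 and -0.05, and not every library correlated best with its own number. With the replicate block, 7 members were downregulated (*FN1* was not) and 2 upregulated, with 762 lower and 848 higher over all tested genes.

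Of the 17 members described by library under the rule, those that changed sign were not called in any setting. The log2 fold change of *COL18A1* was -0.07 without scaling, -0.20 with TPM and from -0.07 to 0.07 when 1 library was left out. That of *COL6A2* was -0.01 without scaling, -0.02 with quantile normalization, -0.14 with TPM and from -0.02 to 0.13 when 1 library was left out. That of *LOXL2* was 0.04 with the length correction, with or without the replicate block, 0.00 with the GC correction, 0.01 with the added scaling factors and from -0.08 to 0.05 when 1 library was left out. Of the 38 genes below the filter, 16 had under 10 reads or none and 11 had 100 reads or more, and the part of depth in their missing calls was not tested.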
